A study of Mus musculus with 8 samples.

Results

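The 10 genes described here are 6 members of the Schlafen family (Slfn1, Slfn2, Slfn4, Slfn5, Slfn8 and Slfn9) and 4 interferon-induced GTPase genes, of which Igtp and Irgm1 belong to the immunity-related GTPases and Gbp2 and Gbp3 to the guanylate-binding proteins. They were selected from 37620 gene IDs because their levels were high in mouse erythroid progenitors that carried hairpin 1 against Hnrnpu, the gene of the nuclear RNA-binding protein hnRNP U. Values of that hairpin library against its control are therefore given as a description without a test. All other libraries, and each hairpin apart, were read for how the same genes stood there.

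All libraries came from C57BL/6 mice. Precursors of red blood cells were sorted magnetically from fetal livers at E14.5, transduced, and kept for 24 h in medium with erythropoietin, and total RNA without ribosomal RNA was sequenced with strand marking. The 8 libraries formed 6 groups. A control hairpin library and libraries of 2 hairpins against Bloodlinc, a long noncoding RNA made from an erythroid super-enhancer, made up the Bloodlinc knockdown. A separate control hairpin library and libraries of 2 hairpins against Hnrnpu made up the hnRNPU knockdown. A Bloodlinc vector library and an empty vector library made up the overexpression pair. No library came from cells without a hairpin or vector, so an effect of transduction cannot be read here. Whether such an effect was of the same size in all 8 was not tested. The labels do not say whether libraries came from separate cultures or animals, so a p-value here covers only the spread among these samples, which may be technical.

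Schlafen genes form a mammalian family in which many members are induced by interferon and act on growth, RNA or translation. Immunity-related GTPases and guanylate-binding proteins are induced by interferon, gather on membranes that enclose intracellular microbes and help to destroy them. Type I interferon acts largely through the factor ISGF3, which binds interferon-stimulated response elements. Interferon gamma acts largely through gamma-activated sites. Fetal liver erythroid cells are not themselves an immune cell type, and interferon is known to disturb red cell formation.

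Most of the 10 promoter windows hold the letters of an interferon-stimulated response element. RefSeq windows (GRCm38.p6) of 250 bases before to 50 bases after each start site were searched on both strands for the core GAAANNGAAA, which is GAAA repeated with 2 bases between the copies. The core was present in 7 of the 10 genes, in the windows of Gbp2, Gbp3, Igtp, Irgm1, Slfn5, Slfn8 and Slfn9. It was present in 3.44% of all 32851 windows and in 3.99% of the 27025 genes with a window. Slfn1, Slfn2 and Slfn4 had no match in this window. The core of a gamma-activated site, TTCNNNGAA, was found in 1 of the 10 genes, Igtp, and in 8.3% of all windows and 9.55% of genes. A match is a description of the letters and not a measured binding site. By GENCODE gene bounds, the 250 bases before the start site lay wholly inside the gene for Slfn5 and Irgm1, and 61 did for Gbp2. The Slfn5 core also runs into a stretch of A. The sites of 4 of the genes are shown as 30 bases in the direction of transcription, with the core in capitals, to show that Gbp3 and Irgm1 carry overlapping copies while Gbp2 and Slfn5 carry 1. Their cores start 45, 59, 30 and 155 bases before the RefSeq start sites of Gbp3, Gbp2, Irgm1 and Slfn5. Those of Gbp3 and Irgm1 end 30 and 15 bases before it.

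Gbp3, chr3:142559992-142560021, plus strand: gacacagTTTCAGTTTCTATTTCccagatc

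Gbp2, chr3:142620594-142620623, plus strand: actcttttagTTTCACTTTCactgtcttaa

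Irgm1, chr11:48871428-48871457, minus strand: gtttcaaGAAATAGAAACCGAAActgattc

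Slfn5, chr11:82951937-82951966, plus strand: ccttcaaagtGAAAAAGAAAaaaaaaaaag

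The 250 bases before the start sites of Slfn8, Slfn9 and Igtp are shown whole, because the Slfn8 and Slfn9 windows are near copies of each other and the Igtp window is a near copy of that of its neighbour Irgm2. The Slfn8 and Slfn9 promoters were identical at 84.0% of 300 bases and those of Igtp and Irgm2 at 82.3%, against a median of 59.0% over 78 pairs of these promoters. In both Schlafen windows the core, in capitals, lies after the same letters gagcag, and it starts 48 bases before the start site of Slfn8 and 45 bases before that of Slfn9. In Igtp the core starts 34 bases before the start site.

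Slfn8, chr11:83020811-83021060, minus strand: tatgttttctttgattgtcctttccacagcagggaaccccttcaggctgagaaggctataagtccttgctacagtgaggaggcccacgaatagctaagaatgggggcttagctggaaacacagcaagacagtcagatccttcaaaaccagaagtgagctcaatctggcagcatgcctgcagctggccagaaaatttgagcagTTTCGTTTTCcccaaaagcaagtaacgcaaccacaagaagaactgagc

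Slfn9, chr11:82991831-82992080, minus strand: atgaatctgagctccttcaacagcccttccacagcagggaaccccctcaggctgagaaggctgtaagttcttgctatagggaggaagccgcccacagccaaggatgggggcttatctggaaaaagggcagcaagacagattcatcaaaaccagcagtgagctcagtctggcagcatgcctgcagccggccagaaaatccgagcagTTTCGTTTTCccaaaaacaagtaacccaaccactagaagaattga

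Igtp, chr11:58199306-58199555, plus strand: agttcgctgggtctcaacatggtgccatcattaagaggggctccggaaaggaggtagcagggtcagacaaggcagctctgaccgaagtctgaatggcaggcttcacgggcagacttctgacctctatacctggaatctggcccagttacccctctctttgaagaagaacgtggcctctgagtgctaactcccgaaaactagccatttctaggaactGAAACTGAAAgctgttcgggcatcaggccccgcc

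The 6 Schlafen genes lie within 238.9 kb on chromosome 11 (GRCm38, 82951349 to 83190216), in the order Slfn5, Slfn9, Slfn8, Slfn2, Slfn1 and Slfn4. The pseudogene Slfn10-ps lies between Slfn8 and Slfn2, and Slfn3 and Slfn14 follow Slfn4, so that all 9 span 335.4 kb. Igtp (58199556 to 58207591, plus strand) and Irgm1 (48861968 to 48871683, minus strand) lie elsewhere on chromosome 11. Gbp3 (142560026 to 142573209) and Gbp2 (142620602 to 142638008) are neighbours on chromosome 3, both on the plus strand. Related copies share sequence: of all 50-base stretches of a gene's transcripts, 14.6% for Slfn8, 11.8% for Igtp, 11.5% for Slfn9 and 10.8% for Slfn4 were also found in another gene, and 0.31% to 4.27% for the other 6. Igtp also shares 162 exonic bases with Irgm2 on the same strand. Counts of these genes are uncertain to that extent, since reads that fit several places were not placed in a gene.

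Counts in genes ranged from 23682993 to 34540691 in 6 libraries, but were 2931627 and 2612916 with hnRNPU hairpins 1 and 2. Counts with a unique place but no gene made up 89.7% and 86.6% there, and 21.7% to 30.1% elsewhere. A further 32.9% and 23.1% of their gene counts fell on IDs that the annotation does not hold, against 0.695% to 1.45% elsewhere. Levels are CPM (each library's counts scaled to a common total) after scaling by edgeR's trimmed mean of M values, written TMM CPM. A single count was worth 0.341 and 0.383 CPM before that scaling with hnRNPU hairpins 1 and 2, and a gene at 0 counts could lie at up to 3 counts, which is between 0.0869 CPM (the library with most counts) and 1.15 CPM (the one with fewest). These limits, and all intervals given, cover counting error only. Hnrnpu RNA was measured at 588 CPM under the hnRNPU control hairpin, 325 and 373 CPM under hnRNPU hairpins 1 and 2, and 214 to 678 CPM in the other 5 libraries. Bloodlinc was measured at 4.46 CPM under the Bloodlinc control hairpin, 2.19 and 1.75 CPM under its hairpins, at 1.26 and 5.46 CPM with the empty and Bloodlinc vectors, and at 4.36, 1.18 and 3.15 CPM in the hnRNPU control, hairpin 1 and hairpin 2 libraries. Neither targeted gene passed edgeR's test in its own knockdown (adjusted p = 0.73 for Hnrnpu and 1 for Bloodlinc).

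In the control libraries the 10 genes fell into a high and a low set. Per kilobase of exon (TMM RPKM), the means over the 2 control hairpins and the empty vector were 3.25 ± 2.60 for Slfn2, 2.64 ± 0.16 for Slfn9, 2.15 ± 0.54 for Irgm1 and 0.465 ± 0.10 for Igtp (SD, n = 3). The other 6 genes lay between 0.0603 RPKM for Slfn5 and 0.131 RPKM for Slfn8, with Gbp2, Slfn1, Slfn4 and Gbp3 between them. In this order the lowest control value of Irgm1 lay above the highest of Igtp, and the lowest of Igtp above the highest of Slfn8, while all other neighbours overlapped. The wide spread of Slfn2 came from the Bloodlinc control hairpin library at 0.246 RPKM, against 4.89 RPKM with the empty vector and 4.62 RPKM with the hnRNPU control hairpin. The Schlafen gene of highest level in the controls was none of the 6 but Slfn14, a ribosome-bound nuclease known in platelet and red cell formation, which at 75.0 RPKM made up 89.9% of the summed Schlafen level.

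Slfn2, a Schlafen protein known for keeping resting T cells and monocytes quiescent, followed the experiment as much as the hairpin. Its level was 0.410 CPM (8 counts) with the Bloodlinc control hairpin and 0.614 and 0.421 CPM with Bloodlinc hairpins 1 and 2. It was 8.13 CPM with the empty vector, 6.71 CPM with the Bloodlinc vector and 7.69 CPM with the hnRNPU control hairpin. It was 94.6 CPM (160 counts) with hnRNPU hairpin 1 and 15.8 CPM (40 counts) with hnRNPU hairpin 2. All 3 libraries of the Bloodlinc knockdown thus lay below the other 5, and both hnRNPU hairpins lay above every other library. The ratios to the hnRNPU control were 12.3 (95% counting interval 10.1 to 15.0) for hairpin 1 and 2.05 (1.44 to 2.86) for hairpin 2. The summed level of 12 granulocyte marker genes split the libraries in a similar way, at 43.1 to 103 CPM in the Bloodlinc knockdown libraries, 954 and 994 CPM in the vector libraries, 1637 CPM with the hnRNPU control and 9475 and 3501 CPM with hnRNPU hairpins 1 and 2. Its part in the Slfn2 values was not tested, and in these bulk samples fewer cells of a type and less RNA per cell cannot be told apart.

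Slfn9 was the Schlafen member of steadiest level, and lowest with the Bloodlinc hairpins. It encodes a long Schlafen protein with a helicase-like part. Its levels were 16.6, 8.46 and 10.2 CPM (324, 193 and 316 counts) with the Bloodlinc control and Bloodlinc hairpins 1 and 2. They were 15.9 and 15.5 CPM with the empty and Bloodlinc vectors, and 14.7, 45.5 and 16.9 CPM with the hnRNPU control and hnRNPU hairpins 1 and 2. Apart from hnRNPU hairpin 1, the Bloodlinc hairpins were the only libraries outside the range of 14.7 to 16.9 CPM. The ratio to the control was 3.09 (2.41 to 3.93) with hnRNPU hairpin 1, the smallest of the 10, and 1.15 (0.824 to 1.57) with hnRNPU hairpin 2. With Bloodlinc hairpins 1 and 2 the ratios were 0.509 (0.424 to 0.611) and 0.617 (0.527 to 0.723), so that both counting intervals lay below 1. In the fit over both Bloodlinc hairpins, which adds the spread between libraries, the log2 fold change was −0.83 (SE 0.58, edgeR adjusted p = 1).

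The neighbouring Slfn8, a long Schlafen gene with a promoter close to that of Slfn9, stood far lower. It held 13, 3 and 18 counts with the Bloodlinc control and hairpins 1 and 2, which are 0.666, 0.132 and 0.583 CPM. It stood at 0.629 CPM with the empty vector, 0.502 CPM with the Bloodlinc vector and 0.315 CPM with the hnRNPU control. With hnRNPU hairpin 1 it stood at 24.8 CPM (42 counts) and with hairpin 2 at 1.18 CPM (3 counts). The hairpin 1 library stood alone, and no other library exceeded 1.18 CPM. The ratio to the control was 78.9 (40.8 to 165) with hairpin 1 and 3.75 (0.680 to 13.9) with hairpin 2, an interval that includes 1.

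Slfn5, known as a nuclear Schlafen protein induced by type I interferon, had the largest hairpin 1 ratio of the 10. It held 1, 4 and 20 counts with the Bloodlinc control and hairpins 1 and 2 (0.0513, 0.175 and 0.648 CPM). It stood at 0.726 CPM with the empty vector, 0.393 CPM with the Bloodlinc vector and 0.367 CPM (14 counts) with the hnRNPU control. It stood at 77.4 CPM (131 counts) with hnRNPU hairpin 1 and at 0.788 CPM (2 counts) with hairpin 2. Only the hairpin 1 library lay above 1 CPM. The ratio was 211 (121 to 396) with hairpin 1 and 2.15 (0.237 to 9.34) with hairpin 2. With Bloodlinc hairpin 2 the ratio of 20 counts to 1 was 12.7 with an interval of 2.02 to 524, while the level itself lay below that of the empty vector library.

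Slfn1 and Slfn4 are Schlafen genes with 1864 and 3964 exonic bases, Slfn1 known for slowing the growth of thymocytes and Slfn4 known from myeloid cells. Slfn1 held 0, 3 and 4 counts with the Bloodlinc control and hairpins 1 and 2, and 12, 7 and 14 counts with the empty vector, the Bloodlinc vector and the hnRNPU control. It held 30 counts (17.7 CPM) with hnRNPU hairpin 1 and 0 with hairpin 2, which allows up to 1.18 TMM CPM there against 0.367 CPM in the control. Slfn4 held 0, 1 and 9 counts with the Bloodlinc control and hairpins 1 and 2. It stood at 0.556, 0.546 and 0.630 CPM with the empty vector, the Bloodlinc vector and the hnRNPU control. It stood at 56.7 CPM (96 counts) with hnRNPU hairpin 1 and at 0.788 CPM (2 counts) with hairpin 2. Both genes were near the limit of detection in the Bloodlinc libraries and high in the hnRNPU hairpin 1 library alone, with ratios of 48.3 (24.8 to 98.5) for Slfn1 and 90.1 (57.1 to 148) for Slfn4. With hairpin 2, 0 and 2 counts left intervals that include 1, so a small difference could not be shown. Those intervals ended at 4.53 for Slfn1 and 5.04 for Slfn4. The intervals of hairpin 1 lie higher, but the genes were selected on that library.

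**Figure D1:**
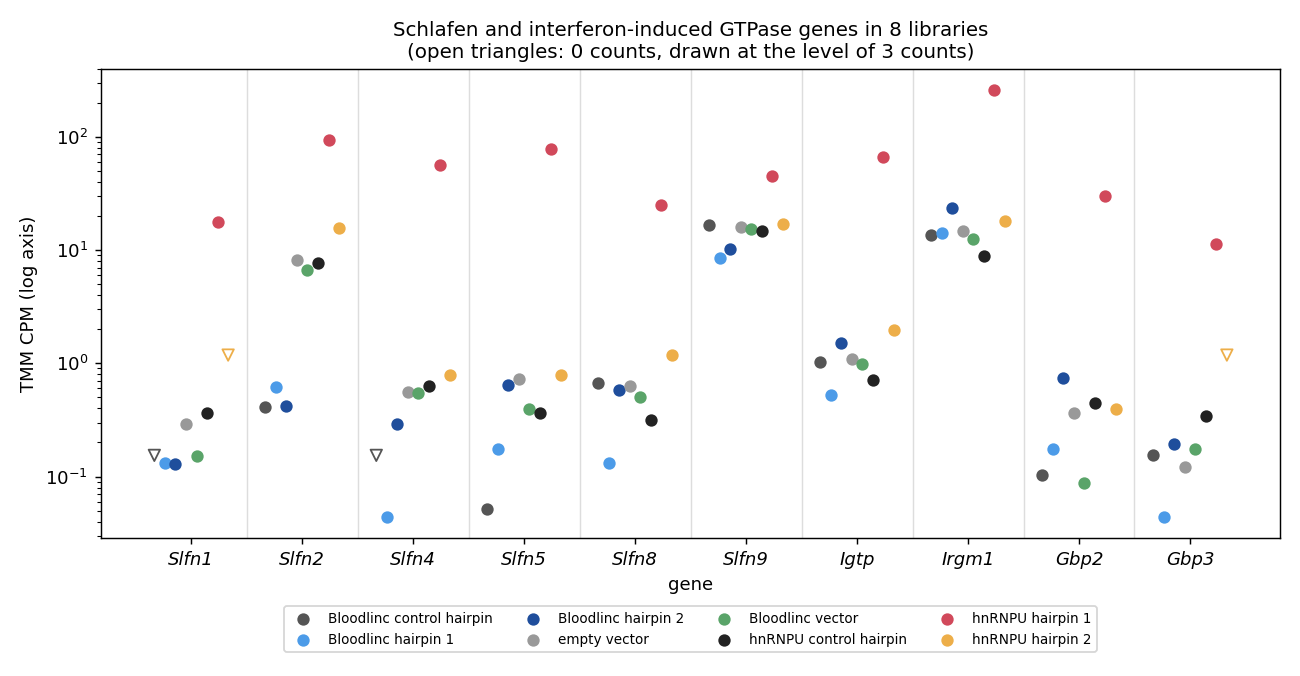
Level of each of the 10 genes in each of the 8 libraries, as TMM CPM on a log axis, with 1 point per library and open triangles at 3 counts where a library held 0. The hnRNPU hairpin 1 points stand highest for all 10 genes, from 11.2 CPM for Gbp3 to 259 CPM for Irgm1, and for Slfn2 the 3 libraries of the Bloodlinc knockdown, its control included, lie below the other 5.

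Among the GTPases, Irgm1 was the most abundant. It encodes a regulatory immunity-related GTPase known for host resistance to mycobacteria and for the upkeep of blood stem cells. Its levels were 13.6, 14.2 and 23.3 CPM (265, 323 and 720 counts) with the Bloodlinc control and hairpins 1 and 2. They were 14.9 and 12.5 CPM with the empty and Bloodlinc vectors. They were 8.95, 259 and 18.1 CPM (341, 439 and 46 counts) with the hnRNPU control and hairpins 1 and 2. The 3 control libraries spanned 8.95 to 14.9 CPM, and Bloodlinc hairpin 2 and both hnRNPU hairpins lay above that range. The ratio was 29.0 (25.1 to 33.5) with hnRNPU hairpin 1 and 2.03 (1.46 to 2.76) with hairpin 2. With Bloodlinc hairpin 2 it was 1.72 (1.49 to 1.99), and with hairpin 1 it was 1.04 (0.883 to 1.23).

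Igtp, also known as Irgm3, is a related GTPase of the endoplasmic reticulum and lipid droplets. Its levels were 1.03, 0.526 and 1.52 CPM with the Bloodlinc control and hairpins 1 and 2, and 1.09 and 0.983 CPM with the empty and Bloodlinc vectors. With the hnRNPU control and hairpins 1 and 2 they were 0.708, 66.8 and 1.97 CPM (27, 113 and 5 counts). Igtp lay between 0.526 and 1.97 CPM in every library but that of hnRNPU hairpin 1. The ratio was 94.3 (61.5 to 149) with hairpin 1 and 2.78 (0.836 to 7.33) with hairpin 2. The 2 Bloodlinc hairpins lay on opposite sides of their control.

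Gbp2 and Gbp3 encode large GTPases that coat the vacuoles of intracellular parasites. Gbp2 held 2, 4 and 23 counts with the Bloodlinc control and hairpins 1 and 2, and 15 and 4 with the empty and Bloodlinc vectors. It stood at 0.446 CPM (17 counts) with the hnRNPU control, 30.1 CPM (51 counts) with hairpin 1 and 0.394 CPM (1 count) with hairpin 2. Gbp3 held 3, 1 and 6 counts with the Bloodlinc control and hairpins 1 and 2, and 5 and 8 with the vectors. It held 13 counts with the hnRNPU control, 19 (11.2 CPM) with hairpin 1 and 0 with hairpin 2. Both stood below 1 CPM in all libraries in which they were counted other than that of hnRNPU hairpin 1, where the ratios were 67.6 (38.4 to 125) for Gbp2 and 32.9 (15.4 to 72.5) for Gbp3. The 23 counts of Gbp2 with Bloodlinc hairpin 2 gave a ratio of 7.27 with an interval of 1.80 to 63.6.

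All 10 genes were at least 2-fold above the control with hnRNPU hairpin 1, the library the selection rested on, beside 20.5% of the 15355 genes tested. Their median log2 difference was 5.58, with a range of 1.62 to 7.44, against a median of −0.28 for all genes tested. With hnRNPU hairpin 2, which the selection did not use, 4 of the 10 (Slfn2, Slfn8, Igtp and Irgm1) were at least 2-fold above the same control library, beside 13% of all genes. Their median there was 0.62, or 1.02 with the 2 genes at 0 counts set to the level of 3 counts, and the counting interval of the ratio lay above 1 for Slfn2 and Irgm1. The fit over both hairpins gave log2 fold changes from 1.07 for Slfn9 to 6.69 for Slfn5 with a median of 4.79, which averages 2 libraries far apart. In that fit all 10 passed the filter on low counts, but Gbp3 reached the limit of 0.396 CPM only in the hairpin 1 library.

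None of the 10 genes passed the test with hnRNPU hairpin 2 alone. In a fit of the 7 libraries without hnRNPU hairpin 1, where all 10 also passed the filter and the lone hairpin 2 library was assumed to vary like the Bloodlinc hairpins, edgeR called 0 of the 10, with 0 at an unadjusted p under 0.05. The fit called 0.0441% of 15869 genes, and 297 lay at an unadjusted p under 0.05. The log2 fold changes were 1.03 (SE 0.83) for Slfn2, 1.01 (SE 0.69) for Irgm1, 1.46 (SE 1.37) for Igtp and 1.89 (SE 1.76) for Slfn8, each with an edgeR adjusted p of 1. The median of the 10 was 0.66, or 1.06 with the 2 genes at 0 counts set to 3 counts, against −0.10 for all genes. This contrast shares its control library with the one the genes were selected on. In the hnRNPU hairpin 2 library Irgm1, Slfn9 and Slfn2 held 46, 43 and 40 counts, and the other 7 genes held 0 to 5.

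**Figure D2:**
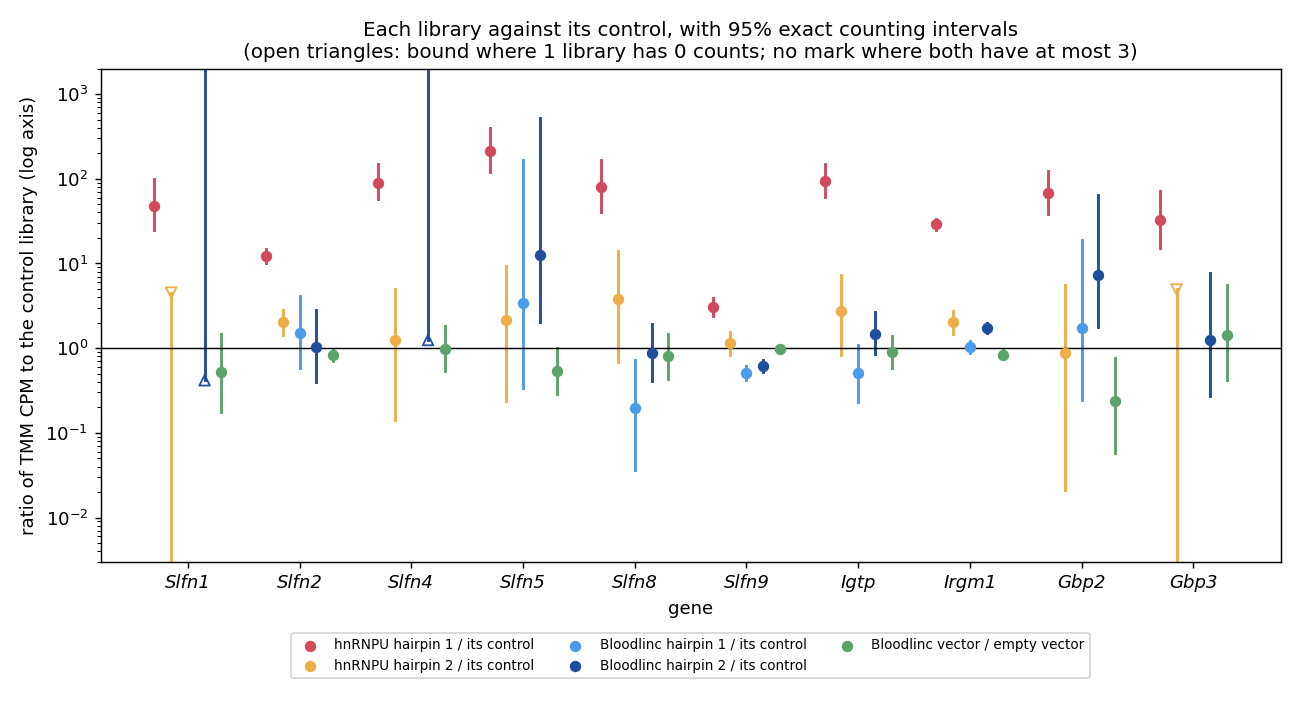
Ratio of each library's TMM CPM to that of its control for the 10 genes, on a log axis, with bars for 95% exact counting intervals, open triangles for bounds where 1 library held 0 counts, and no mark where both held at most 3. The intervals of hnRNPU hairpin 2 lie above 1 for Slfn2 and Irgm1, and those of the Bloodlinc vector lie below 1 for Slfn2, Irgm1 and Gbp2; the hairpin 1 values are those the genes were selected on.

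The Bloodlinc knockdown asked whether these genes depend on Bloodlinc, in libraries the selection did not use. EdgeR called 0 of the 10 at an adjusted p under 0.05, beside 0.124% of 15355 genes, and every adjusted p was 1. At an unadjusted p under 0.05 were 2 of the 10, Slfn4 and Slfn5, and 613 of all genes. DESeq2 and limma-voom called 0 of the 10 as well, each with 0 at an unadjusted p under 0.05. Slfn5 had a log2 fold change of 2.93 (SE 1.33), on 1 control count. Slfn4, with 0 control counts, has no fold that can be bounded from both hairpins, since 9 of its 10 hairpin counts lay with hairpin 2. Slfn1 likewise had 0 control counts, with 3 and 4 counts under hairpins 1 and 2. The other 7 values ran from −0.85 (SE 1.04) for Slfn8 to 2.15 (SE 1.35) for Gbp2, with Irgm1 at 0.47 (SE 0.57), Slfn2 at 0.32 (SE 0.82) and Igtp at 0.02 (SE 0.80). The median of the 10 was 0.39, or 0.15 with Slfn1 and Slfn4 set against 3 control counts, and 0.06 for all genes.

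Each Bloodlinc hairpin was also read apart. Both hairpin libraries lay above the control for 6 of the 10 (Slfn1, Slfn2, Slfn4, Slfn5, Irgm1 and Gbp2), beside 31.5% of all genes. For Slfn8 and Slfn9 both lay below the control, and the share of all genes that did so was not computed. Slfn1 and Slfn4 had 0 counts in the control, so any count placed them above it. With hairpin 2, 4 of the 10 were at least 2-fold above the control (Slfn1, Slfn4, Slfn5 and Gbp2), beside 15.7% of all genes, and with hairpin 1 it was 1 (Slfn1, with 3 counts), beside 7.4%. These 4 held 0 to 2 counts in the control. The median log2 difference was 0.66 with hairpin 2 and 0.27 with hairpin 1, and it was 0.39 and −0.55 with the genes at 0 counts set to 3. Leaving out a Bloodlinc hairpin sets 1 library against 1 control, assumed to vary like the hnRNPU hairpins. Without hairpin 1, edgeR called 63 genes and 0 of the 10, with 3 of the 10 (Slfn4, Slfn5 and Gbp2) and 1013 of all genes at an unadjusted p under 0.05. Without hairpin 2 it called 0 genes, with 0 of the 10 and 291 of all genes at an unadjusted p under 0.05.

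The choice of control mattered for Slfn2. Against the hnRNPU control hairpin library in place of their own, the Bloodlinc hairpins had Slfn2 lower, with a log2 fold change of −3.90 (edgeR adjusted p = 3.82e-07). Slfn1 and Slfn4 turned to −1.46 and −1.80 and Slfn8 to 0.22 in that setting, which called 1043 genes in all. In the same way hnRNPU hairpin 2 against the Bloodlinc control hairpin had Slfn2 higher by 5.26 (edgeR adjusted p = 0.00908), among 562 genes called. The difference between the 2 control libraries in Slfn2 is thus larger than any difference between a Bloodlinc hairpin and its own control.

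Overexpression of Bloodlinc had 1 library per arm and so no test. Relative to the empty vector, 9 of the 10 genes lay lower with the Bloodlinc vector, the exception being Gbp3 on 5 and 8 counts. Some of the 9 lay close to the empty vector, with log2 differences of −0.02 for Slfn4, −0.04 for Slfn9 and −0.14 for Igtp. The share of all genes that lay lower, or whose counting interval lay below 1, was not computed. The median log2 difference was −0.26, against 0.01 for all genes. Only Gbp2 passed 2-fold, with 15 and 4 counts and a ratio of 0.241 (0.0582 to 0.756), beside 1.75% of all genes in either direction. The counting interval also lay below 1 for Slfn2 (ratio 0.825, 0.704 to 0.966) and Irgm1 (0.840, 0.748 to 0.943), both of them small. It included 1 for the other 7, among them Slfn9 at 0.974 (0.875 to 1.08) on 657 and 709 counts.

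Along the Schlafen cluster, genes within 335.4 kb did not share the hairpin 1 difference in size. In chromosomal order the log2 differences with hnRNPU hairpin 1 were 7.44 for Slfn5, 1.62 for Slfn9, 5.98 for Slfn8, 3.15 for Slfn10-ps, 3.61 for Slfn2, 5.32 for Slfn1, 6.33 for Slfn4, 0.19 for Slfn3 and 1.30 for Slfn14. Slfn3, Slfn14 and Slfn9 stood at the low end. Levels in the hnRNPU control, hairpin 1 and hairpin 2 libraries were 258, 634 and 279 CPM for Slfn14 and 8.29, 9.46 and 4.73 CPM for Slfn3. Slfn10-ps, which shares sequence with Slfn8 and Slfn9, stood at 0.262, 2.955 and 0 CPM (10, 5 and 0 counts). Of the 3 Schlafen genes outside the selection that were tested, 0 passed in the hnRNPU knockdown and 0 in the Bloodlinc knockdown.

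**Figure D3:**
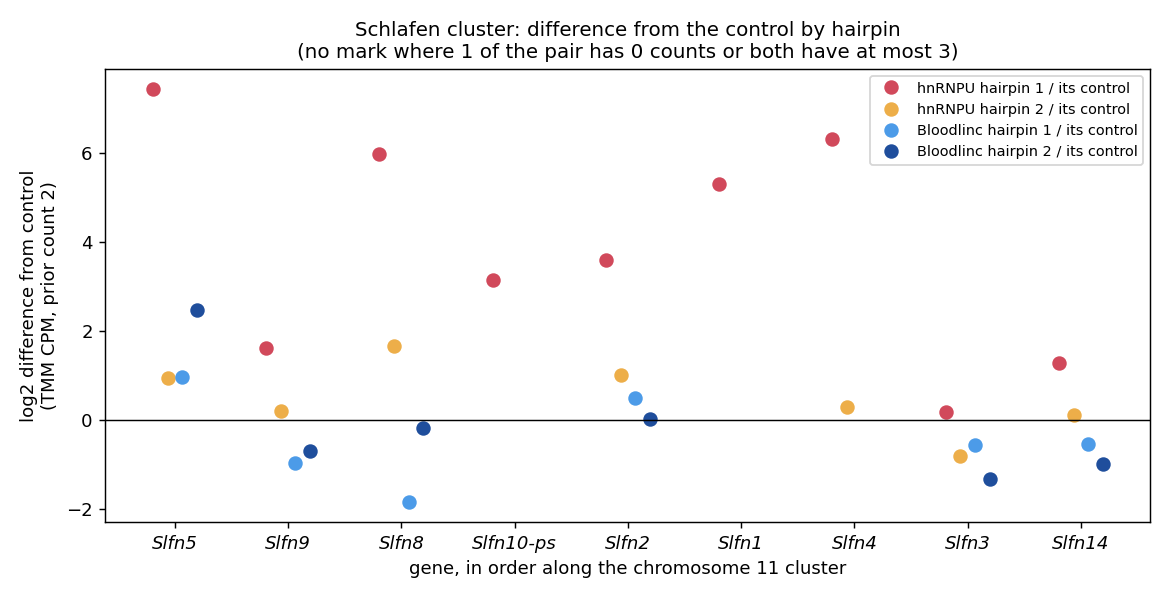
Log2 difference of TMM CPM (prior count 2) between each hairpin library and its control for the Schlafen genes in their order on chromosome 11, with 1 point per hairpin and no point where 1 library of a pair held 0 counts or both held at most 3. The hnRNPU hairpin 1 points run from 0.19 for Slfn3 to 7.44 for Slfn5, while those of the other hairpins stay between −1.82 and 2.48.

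Some relatives of the GTPases outside the selection rose in the hnRNPU knockdown, with most of the rise in the hairpin 1 library. The hnRNPU knockdown fit called 0.58% of all genes higher and 0.3% lower. In it 1 of 9 other immunity-related GTPases and 2 of 3 other guanylate-binding proteins passed as higher, and 0 as lower. This fit includes the hairpin 1 library that the selection rested on, so these calls are not independent of the selection. A rise in 1 library can pass it, as with Mx1 below. The same holds for the other gene lists read in this fit. Irgm2, the neighbour of Igtp, rose (edgeR adjusted p = 0.000237), with 0.944 CPM under the control, 59.1 CPM under hairpin 1 and 2.76 CPM under hairpin 2. Irgm2 shares 162 exonic bases with Igtp. Gbp7 rose by a log2 fold change of 3.55 (adjusted p = 0.00181), with 3.96, 80.4 and 13.8 CPM in the same libraries, with a hairpin 2 ratio of 3.48 (2.34 to 5.06). Gbp9, with 2, 23 and 2 counts, also passed (adjusted p = 0.0416), and its hairpin 1 ratio was 259 (64.0 to 2267). Not past the test were Gm12250 with 4, 20 and 1 counts, Tgtp2 with 1, 17 and 0, Gbp2b with 5, 5 and 1, and 9930111J21Rik2 with 286, 86 and 38. Irgq, which carries a GTPase-like fold, stood at 6.32, 4.14 and 4.73 CPM, and F830016B08Rik, 9930111J21Rik1 and Iigp1 stood at 2.36, 2.36 and 1.18 CPM at most. In the fit without hairpin 1, 0 genes of these lists passed. Among the Mx and very large GTPases, Mx1, an antiviral dynamin-like protein gene, rose (1 of 4) from 0.262 to 31.9 CPM with hairpin 1 (adjusted p = 0.00233), and had 0 counts with hairpin 2.

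Upstream of these genes, few counts fell on the interferon genes themselves, and some of the factors they act through rose. Of 20 listed interferon ligand genes 11 could be matched. These 11 were at 0 counts with both hnRNPU hairpins and in all 3 Bloodlinc knockdown libraries. They summed to 0.0262 CPM in the hnRNPU control and to 0.218 CPM in each vector library, and none could be tested. At 0 counts each gene could lie at up to 1.02 and 1.15 CPM (before TMM scaling) with hnRNPU hairpins 1 and 2. These limits lie above the sums, so the zeros with the hnRNPU hairpins do not show that the ligands were absent. Of 9 receptors and kinases 0 passed, with Jak1 at 108, 205 and 147 CPM and Jak2 at 110, 124 and 94.9 CPM in the hnRNPU control, hairpin 1 and hairpin 2 libraries. Of 9 interferon transcription factors tested, 2 rose. Stat2, an ISGF3 subunit, stood at 6.38, 88.1 and 11 CPM (log2 fold change 2.94, edgeR adjusted p = 0.0123), and Irf7, which amplifies type I interferon, at 1.68, 122 and 4.33 CPM (5.22). Of 7 negative regulators 2 passed as higher, Usp18 and Trim21. For Usp18 the rise lay in the hairpin 1 library only, with 1 count under hairpin 2. For Trim21 it lay mainly in the hairpin 1 library. Usp18, which blocks the type I receptor, stood at 0.39, 59.1 and 0.39 CPM in these libraries (log2 fold change 6.20). Trim21, an antibody receptor that targets proteins for destruction, stood at 2.62, 40.8 and 3.55 CPM (3.05). In the Bloodlinc knockdown 0 genes of any of these lists passed, and without hnRNPU hairpin 1 again 0.

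None of the antigen presentation genes passed the test. Of 11 class I and immunoproteasome genes all had a positive log2 fold change in the hnRNPU knockdown, but 0 passed. Their median was 1.02, against −0.09 for all genes, and the share of all genes with a positive value was not computed. By single library their median log2 difference was 1.31 with hairpin 1 and 0.24 with hairpin 2. B2m, the light chain of class I molecules, stood at 48.8, 314 and 77.2 CPM and the heavy chain gene H2-D1 at 70.8, 271 and 86.3 CPM in the hnRNPU control, hairpin 1 and hairpin 2 libraries. The 5 class II genes tested, known targets of interferon gamma, had a median of 0.55 with 3 of 5 higher and 0 that passed. H2-Ab1 stood at 0.630, 0.591 and 1.18 CPM and H2-DMa at 0.761, 1.18 and 0.394 CPM in these libraries. The summed level of the 7 listed class II genes was 4.14 CPM with hnRNPU hairpin 1, within the range of 1.58 to 7.19 CPM over the other 7 libraries.

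Some marker genes of other blood cells also stood higher with hnRNPU hairpin 1. The summed level of the 10 genes was 24.5 to 55.9 CPM in 7 libraries and 685 CPM with hnRNPU hairpin 1, a ratio of 19.8 to the control, and 1.62 with hairpin 2. The 12 granulocyte markers had summed ratios of 5.79 and 2.14, with S100a9 at 436, 3178 and 1070 CPM and S100a8 at 341, 2265 and 753 CPM. Mpo, a gene of early granulocytes, stood at 389, 435 and 571 CPM, and Elane and Prtn3 at 27.0, 26.6 and 31.9 CPM and 58.8, 68.0 and 71.7 CPM. Of 11 granulocyte markers tested, Ngp (2.73) and Ltf (2.71) rose, and Ly6g was at 0 in both hairpin libraries. Ngp stood at 158, 1602 and 492 CPM and Ltf at 125, 1297 and 335 CPM. The 12 macrophage markers had ratios of 6.52 and 2.0, carried by Lyz2 at 216, 1472 and 443 CPM, with Csf1r at 12.5, 44.9 and 13 CPM. None of them passed, and 7 of the 12 (Cd163, C1qa, C1qb, C1qc, Mertk, Timd4 and Marco) were at 0 with hairpin 1. Bst2, listed for dendritic cells and itself interferon-induced, rose (3.42) and stood at 1.57, 31.3 and 3.15 CPM. Flt3 stood at 3.07, 3.55 and 3.94 CPM, and Siglech, Ccr9 and Batf3 were at 0 with hairpin 1. Lymphocyte markers summed to 0.482 to 10.6 CPM over all libraries, with 9 of 12 at 0 with hairpin 1 and Il7r and Cd79b highest at 5.32 and 4.14 CPM.

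The remaining lists had smaller ratios. Erythroid markers had a summed ratio of 1.34 with hairpin 1 and 0.815 with hairpin 2, with Hbb-bt at 13250, 19280 and 10380 CPM and Slc4a1 at 6263, 6957 and 5051 CPM. Their summed level was 11960 to 52510 CPM over the 8 libraries and 0 of the 11 were at 0 counts in any. Of the 11, 4 had a positive log2 fold change in the hnRNPU knockdown (median −0.81) and 0 passed. Hemgn stood at 919, 148 and 351 CPM, Klf1 at 446, 137 and 165 CPM, Epor at 109, 19.5 and 44.5 CPM and Tfrc at 4713, 1526 and 2108 CPM. Megakaryocyte markers had ratios of 1.57 and 1.09 (Itga2b 36.5, 66.2 and 46.1 CPM, Vwf 21.8, 13 and 12.6 CPM), and mast cell and basophil markers 1.31 and 1.84 (Kit 25.0, 20.7 and 41.0 CPM, Cpa3 10.8, 9.46 and 21.3 CPM). Endothelial markers had ratios of 3.49 and 1.5 (Pecam1 7.56, 18.3 and 13 CPM, Tek 2.05, 16 and 1.58 CPM). Hepatocyte markers summed to at most 1.77 CPM in the hnRNPU libraries, with Afp and Alb at 1.18 and 0.591 CPM with hairpin 1 and 6 of 8 genes at 0. None of these 4 lists had a gene that passed. The part of the marker genes, of the low depth and of the large share of counts outside genes in the values of the 10 genes was not tested.

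**Figure D4:**
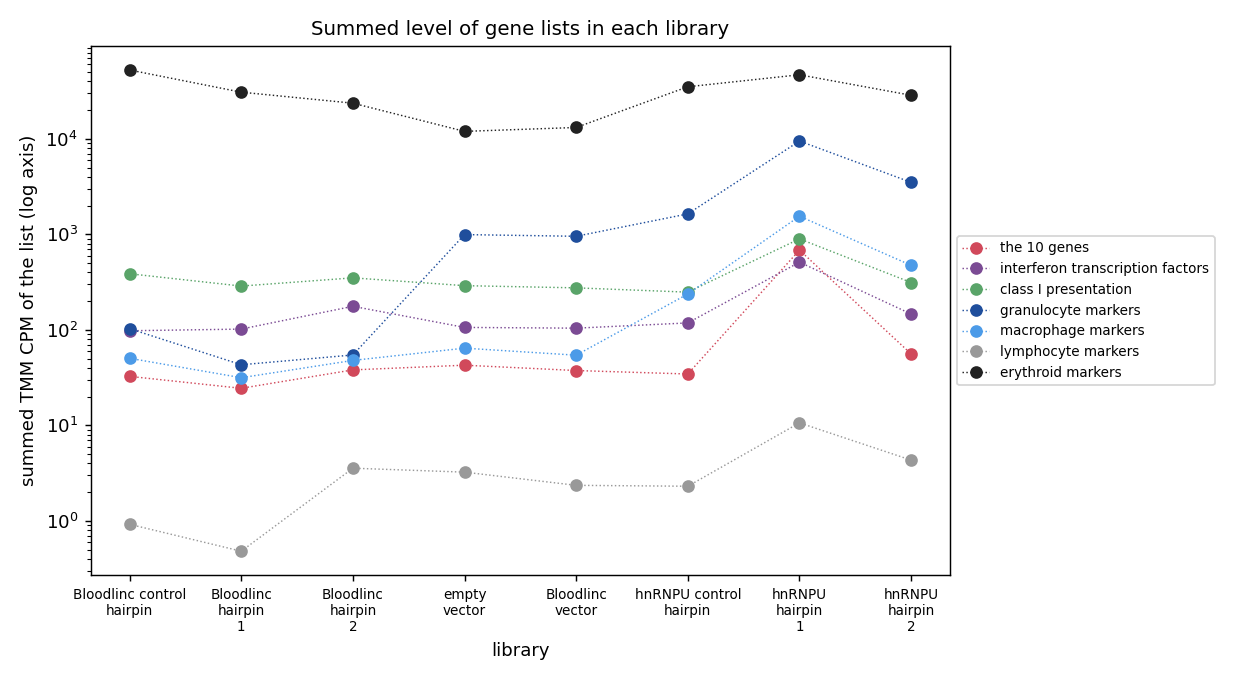
Summed TMM CPM of gene lists in each of the 8 libraries, on a log axis, with 1 point per list and library and dotted lines as a guide. The sum of the 10 genes stays between 24.5 and 55.9 CPM except at 685 CPM with hnRNPU hairpin 1, while granulocyte and macrophage markers also differ between the control libraries.

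The likeness of other genes to the 10 depended on 1 library. Over 8 libraries, the 5 genes with the highest Pearson correlation to the mean log2 level of the 10, among 10931 genes of at least 1 CPM on average, were Ddx60 (r = 0.993), Stat2 (0.984), Dtx3l (0.984), Trim30d (0.983) and Ifi47 (0.979). Without hnRNPU hairpin 1 they were Gpx3 (0.994), Ggh (0.993), Gng2 (0.990), D11Wsu47e (0.984) and Gm16222 (0.983), with no gene in both sets. Within the 10, each gene's correlation with the mean of the other 9 ran from 0.745 for Slfn2 to 0.984 for Slfn5 over 8 libraries. Over the 7 libraries it ran from −0.06 for Gbp3 and −0.03 for Irgm1 to 0.847 for Slfn5 and 0.95 for Slfn4. These values share libraries, depth and the Bloodlinc control at or near 0 for several genes, and are given as a description.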

How the data were processed

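Each library had 1 deposited file of raw counts per gene, made by the authors with TopHat2 2.0.11 and HTSeq on mm9, per the submitters' processing notes. The HTSeq version, annotation release and strand setting are not given in the sources used here. The files hold 37620 Ensembl gene IDs and 5 summary entries, which were kept out of library sizes and gave the share of uniquely placed counts outside genes (21.7% to 89.7%). Symbols (found for 87.4% of IDs), exon lengths and gene positions came from GENCODE M21 on GRCm38, and promoter windows of all 10 genes from RefSeq (GRCm38.p6). Neither set of positions was used to count reads. Of 188 entries in the gene lists, 14 were not matched, and 1 further gene is not reported here.

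All 8 libraries in 6 groups entered 1 fit with edgeR 4.0.16 under R 4.3.3, with TMM scaling, filterByExpr (15355 genes tested) and quasi-likelihood F-tests. The Benjamini-Hochberg adjustment ran over every tested gene, and 0.05 was the threshold. Only the 2 hairpins of each target repeat, which left 2 residual degrees of freedom, with 397 prior degrees of freedom and a common dispersion of 0.145, so each single control was assumed to vary like the hairpins. The SE is the log2 fold change over the square root of F. Log2 differences of single libraries used a prior count of 2, and ratios carry 95% exact conditional binomial intervals. DESeq2 1.42.0, limma 3.58.1 (voom), other scalings, filters, controls and depths were alternatives. The fit was tested on simulated data.

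The 10 genes and the gene lists were chosen with earlier results of these data known. Named were the 10 genes, their family members of at least 1 CPM in any library, up to 4 passing genes of each pathway list (or the 2 most abundant where none passed), the 2 most abundant of each marker list, the 5 genes most correlated with the 10, and both targets. Marker genes at 0 counts, those that passed, Mpo, Elane, Prtn3, Hemgn, Klf1, Epor and Tfrc, and 9930111J21Rik1 and further relatives given as maxima, were named beyond this after their values were seen.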

Additional observations from a re-analysis of the deposited data

How the results depend on the processing

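No paired analysis was possible because the groups compared share fewer than 2 replicate numbers: each control is 1 library, and the numbers name different hairpins. Of the 10 genes, 0 were called in the Bloodlinc knockdown in every setting but 1: with the other control hairpin library edgeR called 1, Slfn2 (log2 fold change −3.895), and Slfn1 (−1.458), Slfn4 (−1.797) and Slfn8 (0.221) changed sign. With the 3 controls pooled, Slfn1 (−0.807), Slfn2 (−3.394) and Slfn4 (−1.222) changed sign. Igtp, near 0, turned to −0.026 with DESeq2, −0.156 with limma-voom and −0.015 with DESeq2's size factors, and with every library thinned to 2612916 counts Irgm1 turned to −0.016 and Gbp3 to 2.21, while Igtp went from 0.018 to 4.503 and Slfn8 from −0.849 to −4.288. Leaving out a library, the Bloodlinc values ran from −1.698 to 0.353 for Gbp3 and from −0.955 to 0.594 for Igtp. The hnRNPU median of the 10 ran from 0.661 to 5.817, with Slfn1 from −6.416 to 5.572, Gbp2 from −0.185 to 6.061 and Gbp3 from −6.31 to 5.019, the low ends without hnRNPU hairpin 1. With the other control hairpin library the median was 6.058, and Slfn1, Slfn2 and Slfn4 stood at 10.76, 7.041 and 12.485 against 4.523, 2.829 and 5.478 as reported. With hnRNPU hairpin 2 alone, 1 gene (Slfn2, 5.262) was called against the Bloodlinc control and 0 in the other settings. The cause of these differences was not tested.

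Over all genes the Bloodlinc calls, 19 as reported, were 5 with DESeq2, 63 without Bloodlinc hairpin 1 and 1043 with the other control. They were 0 with limma-voom, at 5 CPM in 2 libraries, with pooled controls, thinned, or without any other single hairpin. The hnRNPU calls, 135 as reported, were 9 with limma-voom, 8 at 5 CPM in 2 libraries, 2340 with the other control, 7 with pooled controls, 12 thinned, and 7 and 59 without hnRNPU hairpins 1 and 2. With hairpin 2 alone, 7 calls became 12 with DESeq2's size factors or no filter and 13 thinned. At 5 CPM in 2 libraries 3 of the 10 genes remained, as in the thinned fit of hairpin 2. For the other 7 genes, which held 0 to 5 counts with hnRNPU hairpin 2, depth limits what can be said of smaller differences there. The hairpin 2 counting interval ended at 13.9 for Slfn8 and 4.93 for Gbp3, and the hairpin 1 interval started at 40.8 and 15.4. The genes were selected on their hairpin 1 values, so this gap is a description and not a result. Both intervals share 1 control library and cover counting error only.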
